A study of Mus musculus with 24 samples.

Results

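The genes described here are the subunits of the phagocyte NADPH oxidase together with the superoxide dismutases and catalase: Cybb, Cyba, Ncf1, Ncf4, Rac2, Sod1, Sod2, Sod3 and Cat. They were chosen by symbol, and each of the 9 was found once among the 54658 gene symbols of both count tables. All 9 had enough counts to be tested in peritoneal cells, hearts and lungs. On GRCm38, with GENCODE M21, the genes of the membrane-bound cytochrome lie at chrX:9435252-9487771 (Cybb, minus strand) and chr8:122424776-122432930 (Cyba, minus). The genes of the cytosolic subunits lie at chr5:134220053-134229625 (Ncf1, minus), chr15:78244801-78262580 (Ncf4, plus) and chr15:78559167-78572783 (Rac2, minus). The dismutase genes lie at chr16:90220754-90226329 (Sod1, plus), chr17:13006846-13040063 (Sod2, plus) and chr5:52363791-52371418 (Sod3, plus), and Cat at chr2:103453849-103485160 (minus).

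The phagocyte NADPH oxidase moves electrons from NADPH across a membrane to oxygen and so makes superoxide. Cybb (gp91phox) and Cyba (p22phox) form the membrane-bound cytochrome, and Ncf1 (p47phox), Ncf4 (p40phox) and the small GTPase Rac2 join it from the cytosol when the cell is activated. Superoxide dismutases turn superoxide into hydrogen peroxide in the cytosol (Sod1), in mitochondria (Sod2) and outside the cell (Sod3), and catalase (Cat) splits hydrogen peroxide into water and oxygen. In macrophages and neutrophils the oxidase is best known for its part in killing engulfed bacteria.

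RNA-seq was performed on male C57BL/6 mice of 7 to 12 weeks that received β-NMN, a precursor of NAD+, at 185 mg/kg per day, or saline as vehicle (0 mg/kg), from the induction of peritonitis on, the last injection being given 24 h before the end. In the thioglycollate (TGC) model of sterile peritonitis, cells washed from the peritoneum of 6 vehicle and 6 β-NMN mice after 3 daily injections were plated and exposed to E. coli for 6 h. In the cecal ligation and puncture (CLP) model of sepsis, hearts and lungs came from the same 3 vehicle and 3 β-NMN mice, harvested 24 h after surgery, so that the organ values follow 1 injection given right after it. The labels describe both models together, with daily injections for at most 4 days, and the separate schedules are those of the study's methods. No unstimulated cells and no sham-operated mice are among the samples analysed here, so every level below belongs to inflamed animals, and the peritoneal cells and organs are whole samples in which fewer cells of a type and less RNA per cell cannot be told apart.

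The organ samples are called CLP by their titles and tissue labels, whereas their source label names the thioglycollate model. A pair of β-NMN hearts carries the number 3, so the second β-NMN heart was identified by the mouse it shares with a lung. Total counts ranged from 31126823 to 112456050 in peritoneal cells, from 27319513 to 68523239 in hearts and from 8915366 to 28356786 in lungs. In the peritoneal set 5 libraries lay above 80 M counts (M for mega) and the other 7 below 60 M counts. The deeper ones were vehicle replicates 4, 5 and 6 and β-NMN replicates 1 and 2. The lung of vehicle replicate 2 had the lowest total and stood apart from the other lungs, with a standard deviation across genes of 1.57 in its log2 difference from their mean, against 0.45 to 0.602 for the others. The heart of the same mouse had the highest value among hearts (0.99, against 0.386 to 0.577).

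In peritoneal cells the summed level of the 6 macrophage markers was 2043 to 2852 CPM (counts scaled to a common library size by TMM) in vehicle mice and 3367 to 3897 in β-NMN mice, with Cd68 the highest. The 5 cardiomyocyte markers, led by Myh6, summed to 31810 to 52260 CPM in hearts, and the 5 lung epithelium markers, led by Scgb1a1, to 55460 to 99880 CPM in lungs. Each sample type therefore held the defining markers of its label. None of the marker genes was at 0 throughout a tissue except for 1 lung epithelium gene in hearts.

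Promoters are shown for 4 of the genes because they hold a match to one of 3 short motifs searched for, and because they belong to genes that rose, fell or did not pass the test in peritoneal cells. The sequences are RefSeq's on GRCm38.p6, which lists 6 of the 9 genes. They run 5′ to 3′ on the gene's strand from 250 bases before RefSeq's transcript start to 30 bases into it. The GENCODE M21 spans of Cybb and Sod2 given above begin further upstream, so that these 2 windows lie within them. Capitals mark a match on either strand.
Cybb, chrX:9469295-9469574, minus strand: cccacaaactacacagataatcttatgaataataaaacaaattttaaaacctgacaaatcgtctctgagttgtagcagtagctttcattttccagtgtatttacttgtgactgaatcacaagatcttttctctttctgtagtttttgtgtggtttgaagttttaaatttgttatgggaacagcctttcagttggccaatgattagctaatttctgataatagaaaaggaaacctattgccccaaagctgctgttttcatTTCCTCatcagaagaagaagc
Sod2, chr17:13007589-13007868, plus strand: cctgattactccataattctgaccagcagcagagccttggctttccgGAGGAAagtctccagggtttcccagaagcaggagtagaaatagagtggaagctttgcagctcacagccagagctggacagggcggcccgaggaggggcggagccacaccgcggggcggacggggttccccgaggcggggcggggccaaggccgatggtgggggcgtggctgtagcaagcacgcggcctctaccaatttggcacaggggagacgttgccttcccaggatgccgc
Cat, chr2:103485124-103485403, minus strand: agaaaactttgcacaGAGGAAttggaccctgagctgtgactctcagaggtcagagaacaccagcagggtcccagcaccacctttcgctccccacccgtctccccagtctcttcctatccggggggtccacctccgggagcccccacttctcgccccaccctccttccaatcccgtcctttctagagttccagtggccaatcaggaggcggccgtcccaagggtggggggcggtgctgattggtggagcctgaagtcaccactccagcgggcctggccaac
Sod1, chr16:90220512-90220791, plus strand: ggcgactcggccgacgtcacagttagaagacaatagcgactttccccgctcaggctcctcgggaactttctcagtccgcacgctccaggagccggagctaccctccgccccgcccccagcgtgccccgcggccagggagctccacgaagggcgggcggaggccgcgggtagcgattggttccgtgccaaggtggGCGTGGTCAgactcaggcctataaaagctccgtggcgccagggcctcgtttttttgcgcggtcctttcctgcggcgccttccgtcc
The core bound by PU.1, a factor of myeloid cells, was searched as GAGGAA, the AP-1 site as TGACTCA and the core of the antioxidant response element as TGACNNNGC, on both strands. Counted from RefSeq's start, GAGGAA began 10 bases into the transcript of Cybb, where it lies on the opposite strand and reads TTCCTC, 203 bases before the start of Sod2 and 235 bases before that of Cat. TGACNNNGC was found 56 bases before the start of Sod1, also on the opposite strand, and TGACTCA in none of the 6 promoters. Over the window of 250 bases before to 50 after the start, GAGGAA is present in 28.3% of 32851 promoters, TGACNNNGC in 12.4% and TGACTCA in 5.2%. The promoters of Ncf1 and Cyba held none of these letters.

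To compare levels between genes, CPM were divided by transcript length in kilobases (RPKM). All exons of a gene can be much longer than its principal transcript (3970 against 641 bases for Sod1 in GENCODE M21), so the level was set on either length. In peritoneal cells of vehicle mice the cytochrome subunits led by either length. On the principal transcript Cyba had 909 ± 91.1 RPKM and Cybb 833 ± 68.0 (SD, n = 6), and their ranges overlapped. Sod2 followed with 205 ± 23.8 RPKM, overlapping with Ncf1 at 156 ± 33.6, which in turn overlapped with Ncf4 at 145 ± 18.3. Rac2 had 113 ± 11.6 RPKM and overlapped with Sod1 at 108 ± 19.3. Cat with 4.73 ± 0.507 RPKM and Sod3 with 1.89 ± 0.825 stood well below. Thus the mRNA of the membrane-bound subunits was several times more abundant than that of the cytosolic ones, and the level of Sod1 depended most on the length used, with 17.4 RPKM over all its exons. Over all exons Cybb came before Cyba and Rac2 before Ncf4, in both cases with overlapping ranges, and the other places were the same.

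The order was different in the organs. In vehicle hearts Sod1 had 381 ± 60.2 RPKM on the principal transcript, Cat 100.5 ± 47.3 (overlapping with Sod2 at 78.8 ± 5.02), Cyba 46.0 ± 1.82 and Sod3 25.4 ± 13.6 (SD, n = 3). The other oxidase genes lay between 3.86 RPKM for Ncf4 and 5.91 for Cybb, neighbours overlapping. In vehicle lungs Sod1 (1610 ± 879 RPKM) and Cyba (311 ± 33.1) led, Cat had 83.3 ± 43.7, and the others lay between 14.9 RPKM for Cybb and 49.4 for Sod2, each overlapping with the next. The mean of Sod2 rested on vehicle replicate 2, with 98.97 RPKM against 25.2 and 23.9 in replicates 1 and 3. Over all exons Sod3 (33.6 RPKM) was above Sod2 (28.9) in these lungs, with overlapping ranges. Over all exons, Cat (100.5 RPKM) was above Sod1 (61.6) in hearts, with overlapping ranges, so the order of these 2 genes rests on the length. Cybb and Cyba were at like levels in peritoneal cells, whereas Cyba was several times higher than Cybb in both organs by either length. Cyba is also a partner of other NADPH oxidases.

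**Figure D1:**
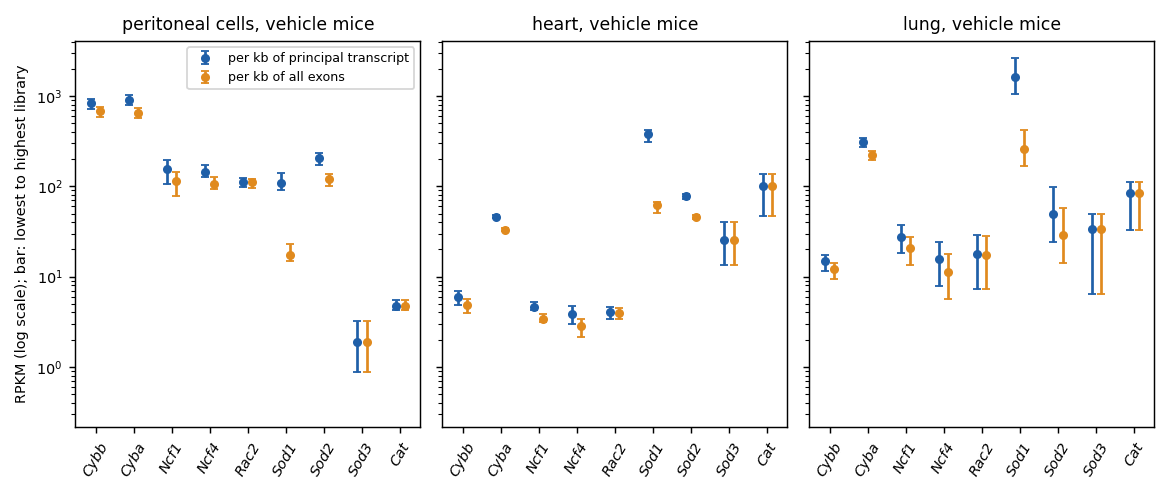
Levels of the 9 genes in vehicle mice, as RPKM on a log scale, by gene along the x axis, in peritoneal cells (6 mice), hearts (3) and lungs (3). Points are means and bars run from the lowest to the highest library, in blue per kilobase of principal transcript and in orange per kilobase of all exons. Cyba and Cybb stand together at the top in peritoneal cells (909 and 833 RPKM in blue) and apart in the organs.

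Most of these genes differed between treatments in stimulated peritoneal cells, and the direction was not the same for all. Differences were widespread there, with 7733 of 14985 genes called by the test given below. The cytosolic subunits Ncf1, Ncf4 and Rac2 fell to between 0.539 and 0.654 of their vehicle level, while the cytochrome subunits Cybb and Cyba did not pass the test. Mitochondrial Sod2 fell to 0.586 and extracellular Sod3 to 0.115 of the vehicle level, Sod1 did not pass, and Cat rose 1.38-fold. By edgeR's quasi-likelihood test with Benjamini-Hochberg adjustment over 14985 genes, 1 of the 9 genes was higher and 5 were lower at an adjusted p below 0.05. Over all genes tested, 23.7% were called higher and 27.9% lower. The median log2 fold change of the 9 genes was -0.61, against -0.02 for all genes.

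Cybb, the catalytic subunit, had a lowest, median and highest level of 3416, 3974 and 4373 CPM in vehicle mice and of 4160, 4477 and 5333 CPM in β-NMN mice. The β-NMN libraries lay mostly above the vehicle libraries, and the groups overlapped. The log2 fold change was 0.21 (SE 0.0954, 95% interval -0.01 to 0.42), with an adjusted p of 0.0849 by edgeR's quasi-likelihood test and 0.013, unadjusted, by an exact permutation test. DESeq2 called this difference (adjusted p 0.032, log2 fold change 0.23), as did edgeR's quasi-likelihood test without β-NMN replicate 3 (adjusted p 0.0497).

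Its partner Cyba, which stabilises the cytochrome, had 589, 670 and 762 CPM in vehicle mice and 642, 722 and 885 CPM in β-NMN mice. The groups overlapped, and the 2 highest values, 845.5 and 885.1 CPM, belonged to the 2 β-NMN libraries with over 80 M counts. The log2 fold change was 0.16 (SE 0.0996, 95% interval -0.06 to 0.38, adjusted p 0.203), and 0.11 to 0.24 without 1 library. Within the 5 deepest libraries alone it was 0.50 (adjusted p 0.0261), and within the other 7 it was 0.0011 (adjusted p 0.996).

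Ncf1, the organiser that carries the cytosolic complex to the membrane, had 289.3, 410 and 527 CPM in vehicle mice and 265, 279 and 288.7 CPM in β-NMN mice. The lowest vehicle library (replicate 3) lay just above the highest β-NMN library, so that the groups did not overlap, and the vehicle mice were far more spread (SD 91.3) than the β-NMN mice (SD 9.36). Ncf1 fell by 0.61 on the log2 scale (SE 0.125, adjusted p 0.000878). Among the 5 deepest libraries alone the adjusted p was 0.0501, at a log2 fold change of -0.55. A stretch of 408 exonic bases of Ncf1 is shared with Gtf2ird2 on the other strand, and the strand setting of the counting was not stated in the sources read. Gtf2ird2 had 26.3 ± 5.87 CPM in vehicle and 10.3 ± 2.34 CPM in β-NMN mice (SD, n = 6), which is small beside Ncf1. In hearts the mean levels of Gtf2ird2 were 11.8 and 12.7 CPM and in lungs 32.3 and 18.4 CPM, close to those of Ncf1 in hearts, so the organ values of Ncf1 given below are uncertain to that extent.

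Ncf4, which binds phosphoinositides on the phagosome, had 187, 205 and 254 CPM in vehicle mice and 100.1, 121 and 129 CPM in β-NMN mice. Every vehicle library was above every β-NMN library. It fell by 0.84 on the log2 scale (SE 0.0965, adjusted p 5.85e-06). Rac2, the GTPase that switches the assembled enzyme on in blood cells, had 299, 349 and 379 CPM in vehicle mice and 168, 180 and 204 CPM in β-NMN mice. Here too the groups were apart, and the fall was 0.89 on the log2 scale (SE 0.0883, adjusted p 1.54e-06). The exact two-sided permutation test gave 0.00216 for Ncf1, Ncf4 and Rac2 alike, the smallest p that 6 mice against 6 allow. How many of all genes had their groups apart in peritoneal cells was not counted.

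Among the dismutases, cytosolic Sod1 had 58.9, 64.5 and 91.0 CPM in vehicle mice and 54.0, 66.1 and 74.0 CPM in β-NMN mice. The groups covered nearly the same range, with a log2 fold change of -0.10 (SE 0.116, 95% interval -0.35 to 0.16, adjusted p 0.517) that was 0.26 in the 5 deepest libraries. Sod2 had 1020, 1186 and 1369 CPM in vehicle mice and 636, 702 and 766 CPM in β-NMN mice. The groups were apart, and Sod2 fell by 0.77 on the log2 scale (SE 0.094, adjusted p 1.06e-05).

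Sod3 was the least abundant of the 9 genes in these cells and the one with the largest fold change among them. Its lowest, median and highest levels were 3.28, 7.21 and 11.9 CPM in vehicle mice and 0.417, 0.857 and 1.22 CPM in β-NMN mice. All β-NMN libraries lay below all vehicle libraries, and counts in single libraries were 30 to 926. Sod3 fell by 3.12 on the log2 scale (SE 0.32, adjusted p 2.12e-06), to a level 8.69-fold lower. Catalase had 11.02, 12.2 and 14.5 CPM in vehicle mice and 12.8, 17.1 and 22.3 CPM in β-NMN mice. The groups overlapped through β-NMN replicate 6 alone, and Cat rose by 0.46 on the log2 scale (SE 0.124, adjusted p 0.00609, exact permutation p 0.00866). Among the 7 libraries below 60 M counts the difference was 0.34 with an adjusted p of 0.112.

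**Figure D2:**
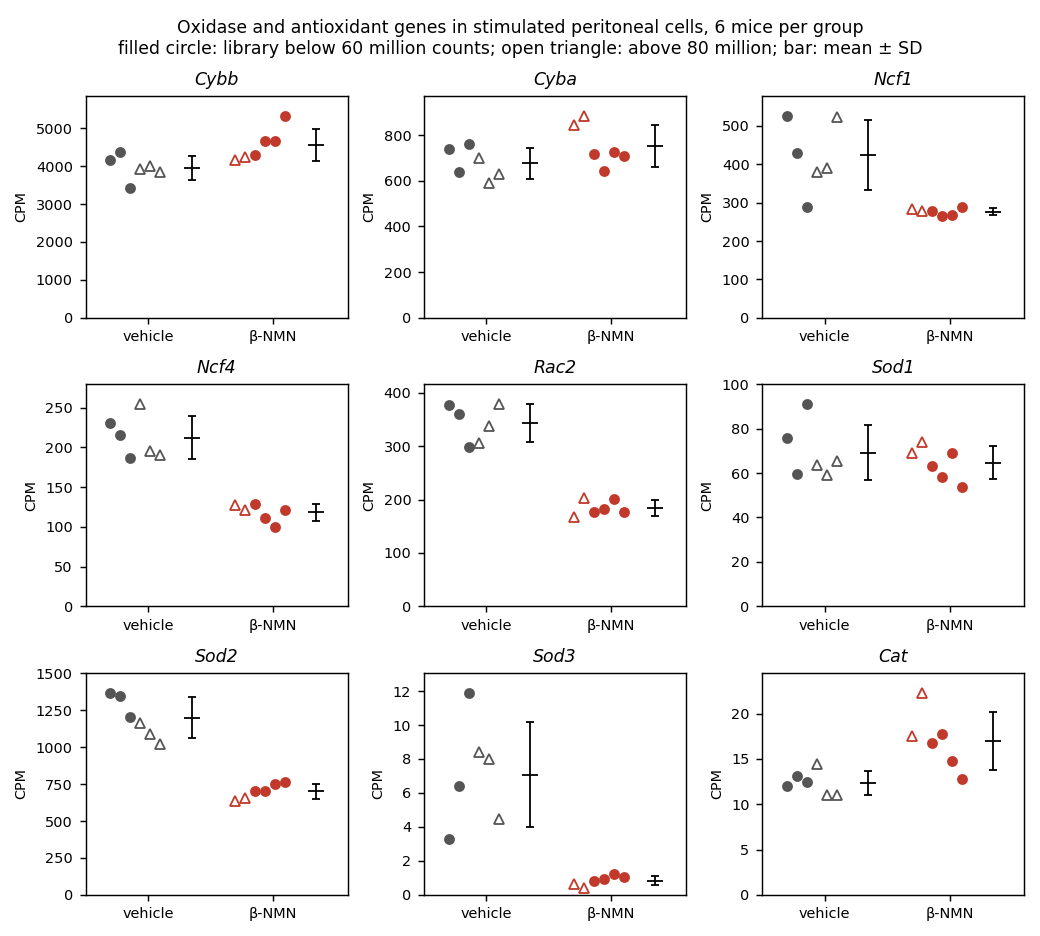
CPM of each gene in stimulated peritoneal cells of 6 vehicle (grey) and 6 β-NMN (red) mice, 1 point per library, with the mean ± SD beside the points. Filled circles are libraries with fewer than 60 M counts and open triangles those above 80 M counts. Ncf1, Ncf4, Rac2, Sod2 and Sod3 show no overlap between groups, whereas Cybb, Cyba, Sod1 and Cat do. The share of all genes without overlap was not counted for these cells.

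When the fold change was tested against 1.5 rather than against no change, Rac2, Ncf4, Sod2 and Sod3 passed, and Ncf1 (adjusted p 0.543) and Cat (adjusted p 1.00) did not. That test called 17.9% of all genes. The count of genes called was 5 of 9 within the 7 libraries below 60 M counts (without Cat) and 6 of 9 within the 5 libraries above 80 M counts (Cyba gained, Ncf1 lost), beside 27.9% and 30.5% of all genes tested in those fits. Both alternatives and the test against 1.5 were chosen after the data were seen.

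Markers of other cell types moved with the same groups of mice. Markers of neutrophils, cells in which the oxidase is also abundant, summed to 111 to 318 CPM in vehicle and 20.8 to 52.1 CPM in β-NMN mice, led by S100a8, with 5 of 8 called lower, 1 (Retnlg) called higher and 1 too low to test. Monocyte markers summed to 87.4 to 187 and 67.3 to 127 CPM, with 2 of 3 called lower. Fibroblast markers, from cells that make extracellular Sod3, summed to 52.6 to 595 CPM in vehicle and 14.0 to 50.4 CPM in β-NMN mice, led by Col1a1, and 3 of 3 were called lower. Smooth muscle markers summed to 2.58 to 13.7 and 0.855 to 1.63 CPM, with 2 of 4 lower. Erythroid markers, from cells rich in catalase, summed to 2.98 to 39.0 CPM in vehicle and 52.5 to 134 CPM in β-NMN mice, with 5 of 6 higher. Lymphocyte markers summed to 30.2 to 148 and 19.8 to 77.3 CPM, with 3 of 5 lower, and endothelial markers to 49.2 to 76.5 and 73.2 to 152 CPM, with Vwf higher and the other 2 of 3 lower. Of the 6 macrophage markers 2 were called higher, Cd68 and Mertk, and none lower. Of the 4 genes of all leukocytes 1 was called higher and 1 lower, and of the eosinophil and mast cell, cardiomyocyte and lung epithelium markers 1 in all, Ager, was called. The part of these cells in the changes of Ncf1, Ncf4, Rac2, Sod2, Sod3 and Cat was not tested.

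The other genes of the pathway moved in either direction in peritoneal cells. Of 11 partners and activators of the oxidase, 2 were called higher and 4 lower, beside 23.7% and 27.9% of all genes, so these counts were near the share over all genes. Their median log2 fold change was 0.09, against -0.02 for all genes. Pik3cg, the phosphoinositide kinase subunit downstream of chemoattractant receptors, had 19.1 to 33.4 CPM in vehicle and 6.78 to 11.1 CPM in β-NMN mice, without overlap. It fell by 1.48 on the log2 scale (SE 0.148, adjusted p 1.71e-06), and Vav1, a guanine nucleotide exchange factor for Rac, by 0.53 (SE 0.0917, adjusted p 0.000242). Hvcn1, the voltage-gated proton channel that balances the charge the oxidase moves, fell by 0.91 (SE 0.271, adjusted p 0.0108), with overlapping groups and a log2 fold change of -0.52 (adjusted p 0.425) among the 5 deepest libraries. Prex1 was also called lower. Higher were Arhgdib, an inhibitor that keeps small GTPases such as Rac in the cytosol, by 0.40 (SE 0.0968, adjusted p 0.00304), and Cybc1, a chaperone of the cytochrome, by 0.29 (SE 0.112, adjusted p 0.0411), the latter call being lost (adjusted p 0.051 to 0.0819) without vehicle replicate 5 or any of β-NMN replicates 1, 2 and 5, and also without the low-count filter (adjusted p 0.108). Rac1, Rap1a, Prkcd, Prkcb and Dock2 did not pass the test.

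The other NADPH oxidases and their partners, Nox1, Nox3, Nox4, Noxa1, Noxo1, Duox1, Duox2, Duoxa1 and Duoxa2, were each under 1 CPM in every peritoneal library. Only Nox1 of the 9 had enough counts to be tested (log2 fold change -0.67, adjusted p 0.16).

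Genes that remove peroxide, or load copper onto Sod1, moved in both directions. Of 17 tested, 8 were called higher and 5 lower, beside 23.7% and 27.9% of all genes, with a median log2 fold change of 0.31. Gpx1, a glutathione peroxidase, had 100.0 to 213 CPM in vehicle and 276 to 603 CPM in β-NMN mice. It rose by 1.29 on the log2 scale (SE 0.192, adjusted p 6.62e-05), and the peroxiredoxins Prdx1 and Prdx4 by 0.69 (SE 0.108, adjusted p 0.000102) and 0.53 (SE 0.113, adjusted p 0.00135). Txn1, Txn2, Prdx3, Prdx2 and Gpx3 were the other genes called higher. Txnrd1, the thioredoxin reductase of the cytosol, had 427 to 593 CPM in vehicle and 151 to 198 CPM in β-NMN mice, a fall of 1.57 on the log2 scale (SE 0.113, adjusted p 8.94e-08). Prdx5 fell by 1.30 (SE 0.13, adjusted p 1.64e-06) and the glutathione reductase Gsr by 0.93 (SE 0.131, adjusted p 4.08e-05), and the low-level genes Gpx8 and Gpx7 were called lower as well. Ccs, the copper chaperone of Sod1, had a log2 fold change of 0.26 (adjusted p 0.178). Of the called genes of both lists that are given with values, Arhgdib, Cybc1 and Prdx4 were not called within the libraries below 60 M counts, and Vav1, Hvcn1 and Cybc1 not within those above 80 M counts. When tested against a fold of 1.5, Arhgdib, Cybc1, Prdx1, Prdx4, Vav1 and Hvcn1 did not pass.

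**Figure D3:**
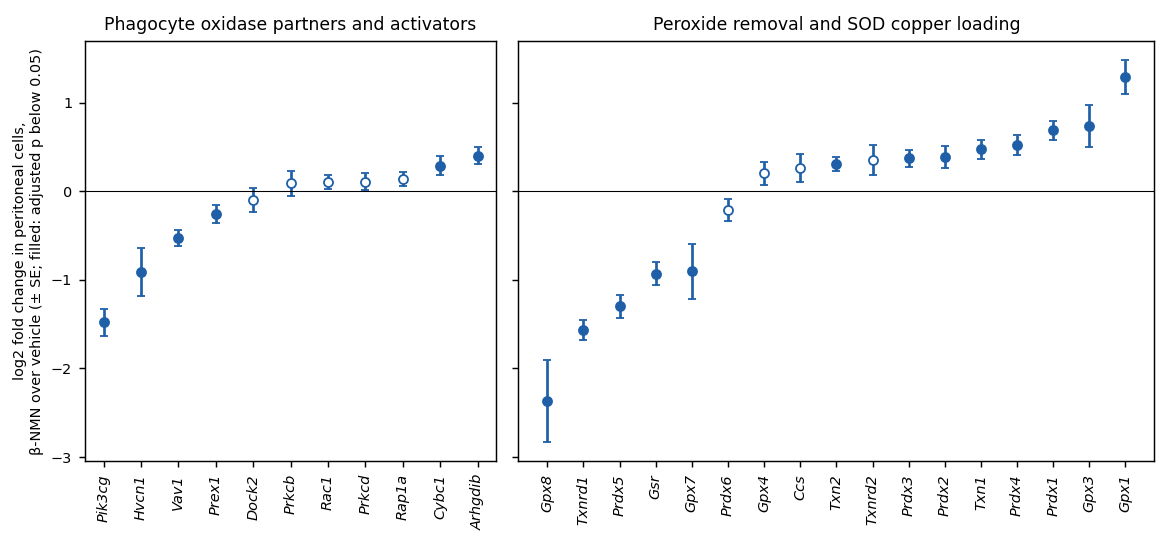
Log2 fold change (β-NMN over vehicle, ± SE) in peritoneal cells for the 11 partners and activators of the phagocyte oxidase (left) and the 17 genes of peroxide removal and copper loading (right), ordered by value. Filled points passed an adjusted p of 0.05. Both panels hold genes on either side of 0, from -2.37 for Gpx8 to 1.29 for Gpx1.

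As a description, the genes whose log2 CPM followed Sod2 most closely over the 12 peritoneal libraries were Prdx5, Ptges and Pid1, with Pearson correlations of 0.987, 0.984 and 0.983. For Cybb they were 2610002M06Rik, Mob1a and Efr3a, at 0.926, 0.921 and 0.92. The libraries of each group share a treatment, so the difference between groups and the spread within them both enter these values.

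In hearts after CLP, none of the 9 genes passed the test between treatments. edgeR's quasi-likelihood test called 0% of 16245 genes at an adjusted p below 0.05, and 1837 genes had an unadjusted p below 0.05, among them Ncf1 and Cybb. DESeq2 called 287 genes and none of the 9. The groups did not overlap for 3 of the 9 genes, and for 23.1% of all genes tested. With 3 mice against 3, the exact permutation test cannot go below 0.1.

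Ncf1 had 11.6, 14.1 and 11.8 CPM in the hearts of vehicle replicates 1, 2 and 3 and 9.27, 7.39 and 7.92 CPM in those of β-NMN replicates 1, 2 and 3. No β-NMN heart reached the lowest vehicle heart, with a log2 fold change of -0.61 (SE 0.154, unadjusted p 0.00553 by edgeR's quasi-likelihood test, adjusted p 0.435). Cybb had 28.5, 22.8 and 33.0 CPM in vehicle hearts and 20.2, 22.1 and 21.4 CPM in β-NMN hearts, without overlap but with vehicle replicate 2 close to the β-NMN hearts. The log2 fold change of Cybb was -0.40 (SE 0.156, adjusted p 0.435), and -0.27 without vehicle replicate 3. Neutrophil markers summed to 15.5 to 32.2 CPM in vehicle and 11.6 to 13.2 CPM in β-NMN hearts, monocyte markers to 4.23 to 11.5 and 2.12 to 2.78 CPM and macrophage markers to 161 to 223 and 166 to 224 CPM, and none of these genes was called. Their part in the values of Ncf1 and Cybb was not tested.

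Sod1 had 264, 200 and 269 CPM in vehicle hearts and 321, 299 and 272 CPM in β-NMN hearts. The groups did not overlap, by a margin of 3 CPM, at a log2 fold change of 0.28 (SE 0.165, adjusted p 0.474) that was 0.15 without vehicle replicate 2. Catalase had 303, 124 and 361 CPM in vehicle hearts and 332, 374 and 349 CPM in β-NMN hearts, where vehicle replicate 2 alone was low. Cardiomyocyte markers summed to 31810 to 45800 CPM in vehicle hearts and 48000 to 52260 CPM in β-NMN hearts. With that library the log2 fold change of Cat was 0.42 (SE 0.364, adjusted p 0.584), and without it 0.08, while it was 0.72 without vehicle replicate 3. The part of the cell composition in this difference was not tested.

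Sod3 had 84.1, 150.1 and 50.3 CPM in vehicle hearts and 55.0, 78.6 and 52.0 CPM in β-NMN hearts, again with vehicle replicate 2 apart, now at the top. Its log2 fold change was -0.62 (SE 0.386, adjusted p 0.495) with that library and -0.13 without it. Rac2 had 12.3, 10.4 and 13.9 CPM in vehicle hearts and 19.6, 24.2 and 10.5 CPM in β-NMN hearts. Only β-NMN replicates 1 and 2 lay above the vehicle hearts, and the log2 fold change of 0.57 had an SE of 0.301 (adjusted p 0.457) and was 0.30 without β-NMN replicate 2.

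The remaining genes overlapped between the heart groups. Sod2 had 430 to 487 CPM in vehicle and 446 to 472 CPM in β-NMN hearts, a log2 fold change of 0.00 with a 95% interval of -0.38 to 0.38. Cyba had 33.2 to 35.7 and 32.7 to 37.4 CPM (0.05, interval -0.25 to 0.35, and 0.0082 to 0.11 without 1 library). Ncf4 had 4.36 to 6.87 and 3.49 to 4.86 CPM (-0.37, interval -1.03 to 0.30), and the difference was -0.20 and -0.22 without vehicle replicate 1 and β-NMN replicate 3.

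In lungs, edgeR's quasi-likelihood test called 0 of the 9 genes and 0% of 17008 genes at an adjusted p below 0.05. An unadjusted p below 0.05 was reached by 301 genes and by none of the 9, and DESeq2 called 5 genes and none of the 9. The groups overlapped for all 9 genes, while 8.21% of all genes did not overlap. The biological coefficient of variation was 0.437, against 0.293 in hearts and 0.233 in peritoneal cells.

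Much of the spread came with the lung of vehicle replicate 2. Sod2 had 147, 580.0 and 140.2 CPM in the lungs of vehicle replicates 1, 2 and 3 and 144, 96.4 and 143 CPM in those of β-NMN replicates 1, 2 and 3. Its log2 fold change was -1.18 (SE 0.593, adjusted p 0.969), and -0.17 without vehicle replicate 2. Sod3 had 169, 23.7 and 184 CPM in vehicle lungs and 175, 282 and 194 CPM in β-NMN lungs. The lung of vehicle replicate 2 was again the outlying one, here at the bottom, and the log2 fold change moved from 0.79 (SE 0.679) to 0.30 without it.

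Cat had 279, 86.0 and 288 CPM in vehicle and 272, 295 and 285 CPM in β-NMN lungs. Apart from vehicle replicate 2 these levels were nearly alike, and the log2 fold change went from 0.38 (SE 0.452) to 0.00 without that library, and to 0.60 and 0.64 without vehicle replicates 1 and 3. Sod1 had 669, 1681 and 745 CPM in vehicle and 1125, 668 and 728 CPM in β-NMN lungs, with a log2 fold change of -0.30 (SE 0.443) that turned to 0.25 without vehicle replicate 2. The summed erythroid markers ranged from 2002 to 11870 CPM in vehicle lungs and from 2531 to 2909 CPM in β-NMN lungs, and their part in these values was not tested.

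Among the oxidase genes, Ncf1 had 49.1, 100.3 and 76.6 CPM in vehicle lungs and 57.8, 39.6 and 49.9 CPM in β-NMN lungs. The groups overlapped through vehicle replicate 1, and the log2 fold change was -0.62 (SE 0.314, 95% interval -1.49 to 0.26, adjusted p 0.969). Without vehicle replicate 2 it was -0.35. Rac2 had 52.0, 22.4 and 87.7 CPM in vehicle lungs and 54.2, 55.7 and 55.1 CPM in β-NMN lungs. The β-NMN lungs lay within 2 CPM of each other between widely spread vehicle lungs, at a log2 fold change of 0.02 (SE 0.451) that ranged from -0.34 to 0.57 when vehicle replicate 2 or 3 was left out.

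Ncf4 had a similar pattern, with 21.4, 11.4 and 35.8 CPM in vehicle and 21.3, 17.4 and 21.8 CPM in β-NMN lungs (-0.19, SE 0.404, and -0.50 and 0.30 without vehicle replicates 2 and 3). Cybb had 54.2 to 82.2 and 66.1 to 74.3 CPM (0.00, 95% interval -0.66 to 0.65), and Cyba 205 to 254 and 143 to 265 CPM (-0.19, interval -0.995 to 0.623). Of the 6 genes called in peritoneal cells, the lung intervals of Ncf1, Ncf4 (-1.31 to 0.93), Rac2 (-1.23 to 1.28), Sod2 (-2.82 to 0.47) and Cat (-0.87 to 1.64) held the peritoneal value, and that of Sod3 (-1.10 to 2.67) did not. In hearts the intervals of Ncf1 (-1.04 to -0.19), Ncf4 and Cat (-0.59 to 1.43) held it, and those of Rac2 (-0.27 to 1.40), Sod2 and Sod3 (-1.69 to 0.46) did not. The lung intervals of these 6 genes all held 0 as well. The error of the peritoneal values was left out, so this description is no test of a difference between tissues.

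**Figure D4:**
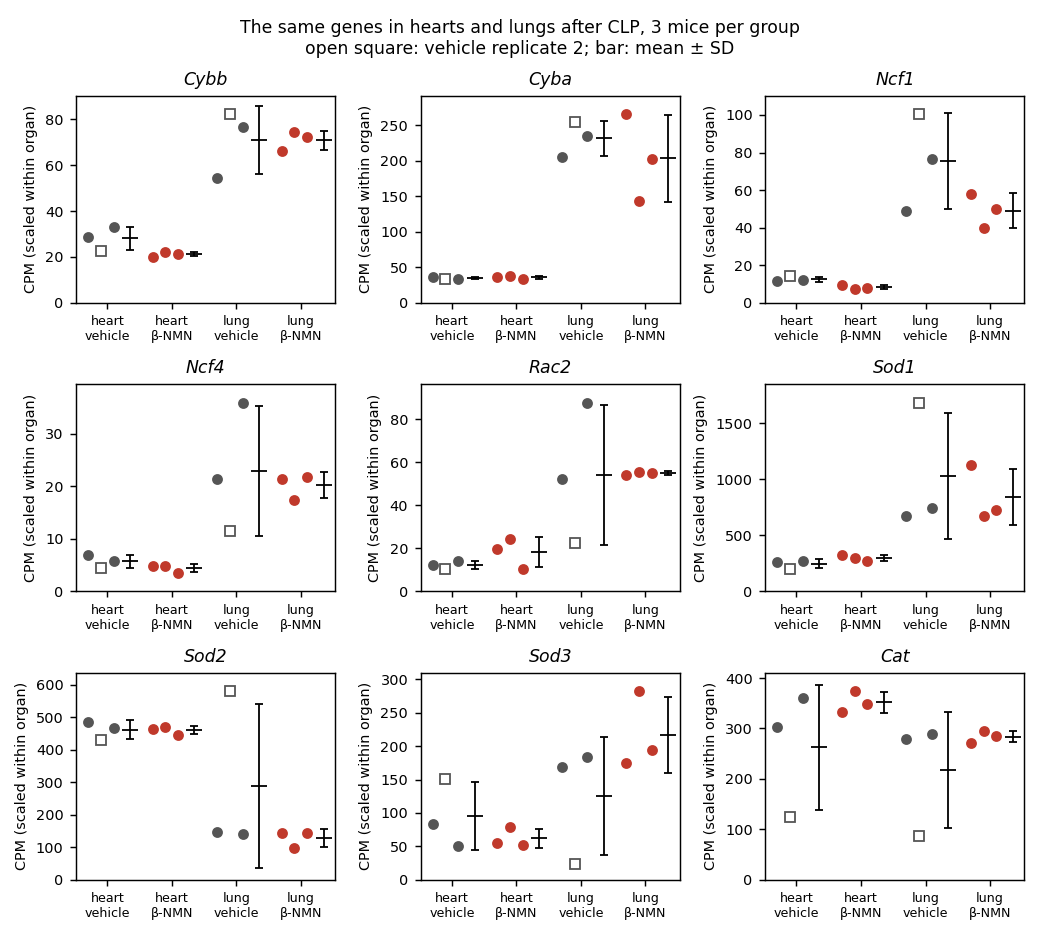
CPM of each gene, scaled within each organ, in hearts and lungs of 3 vehicle (grey) and 3 β-NMN (red) mice after CLP, with the mean ± SD beside the points. Open squares are vehicle replicate 2, whose lung lies far from the other vehicle lungs for Sod1, Sod2, Sod3 and Cat (580 CPM for Sod2, against 147 and 140).

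The difference of the treatment effects in lung and heart was tested as an interaction over the 12 CLP libraries. None of the 9 genes passed, and 0% of 18318 genes did by edgeR's quasi-likelihood test, with 797 genes and none of the 9 at an unadjusted p below 0.05, while DESeq2 called 14 genes and none of the 9. The lung minus heart differences of effect ranged from -1.11 for Sod2 (SE 0.609) to 1.37 for Sod3 (SE 0.863), and without vehicle replicate 2 these were -0.14 and 0.40. Peritoneal cells come from another experiment and another table, so no difference of their effect from that of the organs was tested.

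**Figure D5:**
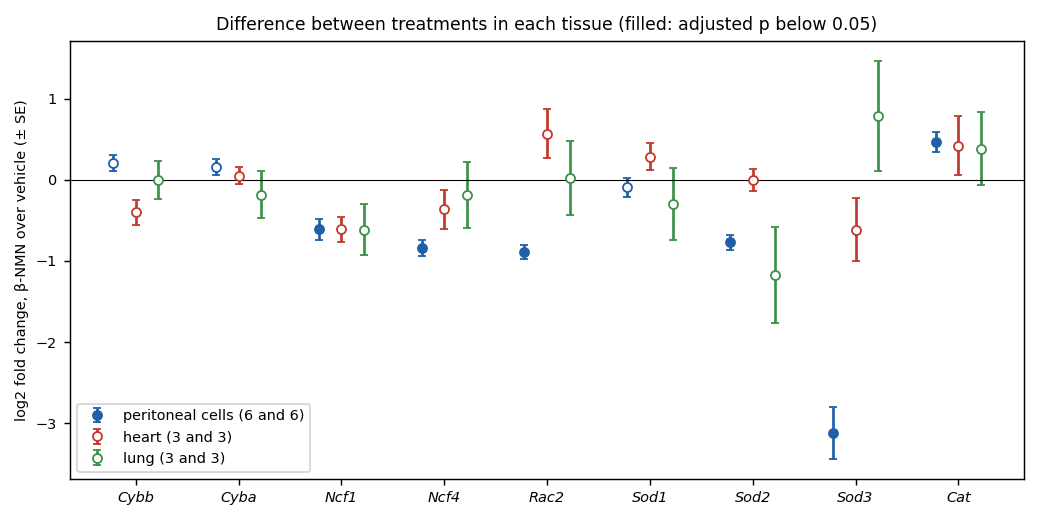
Log2 fold change (β-NMN over vehicle, ± SE) of the 9 genes in peritoneal cells (blue, 6 and 6 mice), hearts (red, 3 and 3) and lungs (green, 3 and 3). Filled points passed an adjusted p of 0.05. All filled points belong to peritoneal cells, and the bars of the organs, above all the lungs, are longer.

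Heart and lung differed from each other in 8 of the 9 genes, 6 being higher and 2 lower in lungs. Over all 18318 genes tested, 35.9% were called higher and 28.9% lower in lungs, with a median log2 difference of 0.14. Cyba was higher in lungs by 1.96 (SE 0.155, adjusted p 5.95e-07) and Ncf1 by 1.90 (SE 0.173, adjusted p 1.83e-06) on the log2 scale. Ncf4 was higher by 1.44 (SE 0.268), Rac2 by 1.21 (SE 0.308), Sod1 by 1.09 (SE 0.232) and Cybb by 0.86 (SE 0.14). Without vehicle replicate 2 the difference of Sod1 was 0.68 (adjusted p 0.00138 by edgeR's quasi-likelihood test). Each of these genes was higher in the lung than in the heart of the same mouse in 6 of 6 mice. On the joint scaling of both organs, neutrophil markers summed to 14.7 to 40.6 CPM in hearts and 1228 to 2130 CPM in lungs, monocyte markers to 2.68 to 14.3 and 377 to 825 CPM, and the 4 genes of all leukocytes to 88.1 to 132 and 391 to 740 CPM, and all markers of these 3 lists were called higher in lungs. Macrophage markers summed to 200.6 to 287 CPM in hearts and 251 to 418 CPM in lungs, with overlapping ranges, and 3 of 6 (Mertk, Cd68 and C1qa) were called higher in lungs and 0 lower. The part of these cells in the higher oxidase levels was not tested.

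Sod2 was higher in the heart, by 1.97 on the log2 scale (lung minus heart -1.97, SE 0.314, adjusted p 0.000183), and in 6 of 6 mice. The joint means were 584 CPM in hearts and 161 CPM in lungs, and without vehicle replicate 2 the difference grew to -2.56. Catalase was also higher in the heart of every mouse (lung minus heart -0.95, SE 0.325, adjusted p 0.0222). That call was lost without any 1 of the β-NMN mice, at adjusted p of 0.0668 to 0.0736, whereas without vehicle replicate 2 the adjusted p was 2.03e-06. With the mouse as a replicate block, which the shared mice allow, the difference of Cat was -0.99 (adjusted p 0.000597). Sod3 was higher in the lung of 5 of 6 mice, by 0.45 (SE 0.43, adjusted p 0.375). Leaving out vehicle replicate 2 gave 0.83 (adjusted p 0.00273), leaving out vehicle replicate 1 gave 0.27 (adjusted p 0.673), and leaving out vehicle replicate 3 gave 0.095 (adjusted p 0.869).

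In the wider pathway, 6 of the 11 oxidase partners were called higher in lungs and 0 lower, beside 35.9% and 28.9% of all genes, with the smallest p for Prkcd (1.77 on the log2 scale), Hvcn1 (3.90) and Dock2 (1.63). Of the other NADPH oxidases and their partners, 6 had enough counts, 4 were higher in lungs and 1 in hearts. Nox4, an oxidase that makes hydrogen peroxide and pairs with Cyba, had joint means of 32.1 CPM in lungs and 1.78 in hearts, Noxa1 2.47 and 0.0118, Nox1 0.317 and 0.0631 and Duox1, the one higher in hearts, 0.00513 and 0.634. Nox3 was at 0 in all 6 hearts. Between treatments, none of the 3 lists had a called gene in either organ.

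Among the 17 genes of peroxide removal, 6 were called higher in lungs and 6 higher in hearts, near the shares of 35.9% and 28.9% over all genes. The smallest p on the lung side were those of Prdx6 (3.25 on the log2 scale), a peroxiredoxin abundant in alveolar cells, Gpx1 (1.69) and Txn1 (1.52). On the heart side stood the mitochondrial Prdx3 (-2.98) and Txnrd2 (-1.98) and the cytosolic Prdx2 (-1.48).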

How the data were processed

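RNA was sequenced from TGC-elicited peritoneal cells (6 vehicle and 6 β-NMN mice) and from hearts and lungs after CLP (3 and 3 mice). Per the labels, groups were set by treatment and tissue. The deposited tables hold read counts per gene symbol, without normalization, which the authors made from NovaSeq reads of poly(A)-selected RNA. The submitters' processing notes name STAR 2.7.3a, featureCounts 2.0.0 and mm10, while annotation and strand setting are not given in the sources used here.

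Tissues were analysed separately in R 4.3.3 by the quasi-likelihood F-test of edgeR 4.0.16 (filterByExpr, TMM, estimateDisp, legacy method), with Benjamini-Hochberg adjustment over all genes tested and calls at an adjusted p below 0.05. Both organs were fitted together for the lung against heart difference and the interaction. Standard errors were the log2 fold change over the square root of F, and 95% intervals used the residual degrees of freedom. CPM used the TMM-scaled library size. The difference of mean log2 CPM (2 added as prior count) was also tested per gene by an exact permutation test, two-sided. Within a tissue the labels name separate mice. Precision of the levels is limited by depth and by the number of mice. Alternatives were DESeq2 1.42.0, its size factors, no low-count filter, the newer quasi-likelihood method, a replicate block and both organs in one fit. Each library was also left out in turn. For the lung against heart difference and the interaction, each mouse was left out with both its organs. Depth classes and a test against a fold of 1.5 were added after seeing the data.

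The genes, the pathway and marker lists and the rule for naming genes were chosen with earlier results of these data known. Named were the 9 genes, the called genes with the 3 smallest p in each direction of each pathway list, list genes under 1 CPM in every library, the most abundant gene of a marker list, and the 3 genes correlated best with Cybb and with Sod2. Gtf2ird2 was added because it shares bases with Ncf1, and the remaining genes of the pathway lists and the markers Retnlg, Mertk, Ager, Vwf and C1qa were named after their values were seen. Hearts and lungs share mice, as the labels say, and the deviations of the 2 organs of a mouse correlated at 0.0638 to 0.171. Between treatments replicate numbers did not pair the samples. Gene positions are those of GENCODE M21, in which 54106 of the 54658 symbols were found. A further gene was left off the oxidase partner list and is not reported here. The 3 genes without a listed promoter are Ncf4, Rac2 and Sod3.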

Additional observations from a re-analysis of the deposited data

Results flagged for a closer look

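In groups of 6 libraries, the gap of the highest or lowest library from the next was compared with the range of its group on the log2 scale (Dixon's ratio, at its 95% critical value), over 31 genes and 62 groups. None of the 9 oxidase and antioxidant genes held a library so far from its group. A library stood apart for 2 pathway genes, and chance alone marks about 1 group in 20. For Gpx1 it was the peritoneal library of vehicle replicate 4, with 100.0 CPM (ratio 0.677). For Prdx2 it was that of β-NMN replicate 6, with 31.4 CPM (ratio 0.742). Without vehicle replicate 4 the change of Gpx1 was 1.20 on the log2 scale. Groups of 3 were not examined in this way, which leaves out the lung of vehicle replicate 2.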

How the results depend on the processing

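The 6 calls among the 9 genes in peritoneal cells, 0 in either organ, 0 for the difference of effects and 8 between organs were the same under DESeq2 size factors, no low-count filter and the newer quasi-likelihood method. DESeq2 called 7 in peritoneal cells. Replicate numbers did not pair the treatments (correlations of same-numbered libraries -0.169 to 0.132 in peritoneal cells, 0.0735 to 0.241 in hearts and -0.518 to 0.304 in lungs), and the replicate block gave 6, 0, 0, 0 and 8 calls. Leaving out 1 library gave 6 to 7 calls in peritoneal cells and 0 in each organ. Leaving out 1 mouse with both its organs gave 7 to 9 calls between organs. Directions turned only for values near 0 or with a wide error that no fit called. With log2 fold changes as reported in brackets, Sod1 in peritoneal cells (-0.096) was 0.26 above 80 M counts and -0.14 to 0.041 without 1 library. Sod2 in hearts (-0.0023) was 0.0037 with DESeq2 size factors, 0.0045 without the filter, 0.010 in DESeq2, 0.0048 with both organs in one fit and -0.059 to 0.040 without 1 library. Cybb in lungs (-0.0025) was 0.034 without the filter, 0.0029 in DESeq2, 0.017 with the replicate block, 0.026 with both organs in one fit and -0.15 to 0.12 without 1 library. Without 1 library, lung values were also -0.42 to 0.018 for Cyba, -0.50 to 0.30 for Ncf4, -0.34 to 0.57 for Rac2 and -0.56 to 0.25 for Sod1. For the difference of effects, Ncf1 (0.022) was -0.088 with DESeq2 size factors, -0.075 in DESeq2 and -0.15 to 0.15 without 1 mouse, and Cat (-0.053) was 0.027 with the replicate block and -0.10 to 0.050 without 1 mouse. Cyba was there -0.42 to 0.025, Ncf4 -0.067 to 0.67 and Sod1 -0.81 to 0.070. The cause of these turns was not tested. The shallowest lung had 8.92 M counts, and the organs had 3 mice a group.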
